A study of Mus musculus with 6 samples.

Results

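The 9 genes described here encode subunits of the NADPH oxidases (Cybb, Cyba, Ncf1, Ncf4 and Rac2 of the phagocyte enzyme, and the stand-alone oxidase Nox4) and the 3 nitric oxide synthases (Nos1, Nos2 and Nos3). They were picked by symbol, through their Ensembl identifiers, from the 54532 identifiers that were counted, and all 9 were among the 15751 genes with enough counts for a test. RNA-Seq was performed on the epididymal fat, the visceral depot beside the epididymis, of male C57BL/6J mice, with 3 libraries from mice on a normal diet (ND, 4.5% fat) and 3 from mice on a high-fat diet (HFD, 60% fat). Both diets were begun at 4 weeks of age and given for 16 weeks, the HFD-fed mice were 20 weeks old, and all 6 libraries are labelled as untreated. Subcutaneous fat, also named in the methods of the study, was not analysed here. The labels do not say that each library came from a separate mouse, so that p-values measure the spread between these libraries, which may be technical.

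NADPH oxidases move electrons from NADPH across a membrane onto oxygen and so make superoxide or hydrogen peroxide. The phagocyte enzyme of macrophages and neutrophils rests as a membrane heterodimer of Cybb (gp91phox) and Cyba (p22phox), and fires when cytosolic subunits, among them Ncf1 (p47phox) and Ncf4 (p40phox), and a Rac GTPase, in leukocytes mostly Rac2, dock onto it. Nitric oxide synthases make nitric oxide from arginine with the cofactor tetrahydrobiopterin: Nos3 is the endothelial form, Nos2 the inducible form known from activated macrophages, and Nos1 the neuronal form. In fat, macrophages, endothelium and adipocytes are all known sources of one or another of these enzymes.

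The 6 oxidase genes were all higher in the HFD libraries, between 2.30-fold for Nox4 and 5.58-fold for Cybb, whereas none of the 3 synthase genes passed the test in either direction. The 2 diets were tested against each other on the raw counts, by edgeR's quasi-likelihood test, with Benjamini-Hochberg adjustment over all 15751 genes and a threshold of 0.05. By this test 6 of the 9 genes were called higher, against 9.85% of all genes tested, and 0 were called lower, against 6.04%. These shares are also the background for the edgeR calls in the lists below. At an unadjusted p under 0.05, 2 of the 9, Nos2 and Nos3, were lower. The share of all genes at that unadjusted threshold is not given, here or for the lists below. Counts at it therefore cannot be judged against a background. DESeq2 and limma-voom also called 6 higher and 0 lower. Over all genes, in either direction, DESeq2 called 3666 and limma-voom 2361. Their shares by direction are not given, so counts by these 2 tests, here and in the lists below, cannot be judged against a background either. In 6 genes every HFD library was above every ND library and in 2 every HFD library was below, orders that held for 21.7% and 19.1% of all genes tested (40.9% together). The median log2 fold change of the 9 genes was 1.68, beside 0.01 over all genes tested.

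**Figure D1:**
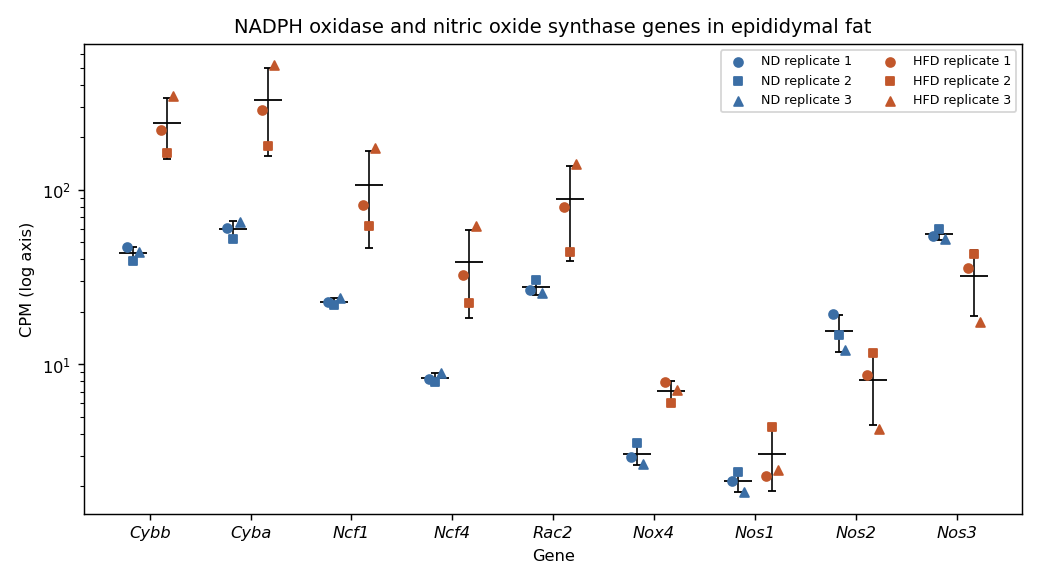
Level of each of the 9 genes in each library, in CPM on a log axis, with marker shape giving the replicate number and color the diet. Horizontal bars are means and error bars 1 SD (n = 3 libraries per diet). The HFD libraries lie above the ND libraries for the 6 oxidase genes, overlap them for Nos1 and lie below them for Nos2 and Nos3.

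Count totals lay between 16996896 and 18859320 per library, so that 3 counts, the floor used here, stand for 0.150 to 0.181 CPM (counts scaled to library size by edgeR's TMM factor). This floor covers counting error only, and the lowest count of any of the 9 genes was 37, for Nos1. The tissue markers were present: the summed level of 10 adipocyte markers was 44819 to 60050 CPM on ND and 20985 to 40717 CPM on HFD, with 2 of the 10 called lower and 0 higher. ND replicate 3 stood apart in 9 epithelial markers, which summed to 328 CPM there and to between 21.4 and 31.1 CPM in the other 5 libraries. Without that library Cybb, Cyba, Ncf1 and Ncf4, 4 of the 9 genes, were called higher.

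The promoter windows of the 2 membrane subunits and of Ncf1 are printed here because these genes moved together and because the windows differ in their letters. Of the 9 genes, 5 were found in the RefSeq promoter table used (build GRCm38.p6, 250 bases before the annotated start to 50 after): Cybb, Cyba, Ncf1, Nox4 and Nos1. The windows, 5′ to 3′ on the strand of the gene, are chrX:9469275-9469574 (minus strand) for Cybb, chr8:122432891-122433190 (minus strand) for Cyba and chr5:134229576-134229875 (minus strand) for Ncf1. Capitals mark matches, on either strand, to 4 short letter patterns: GAGGAA (PU.1-type), GAAANNGAA (IRF-type), GGANNNTCC (NF-kB-type) and TATAAA.
Cybb: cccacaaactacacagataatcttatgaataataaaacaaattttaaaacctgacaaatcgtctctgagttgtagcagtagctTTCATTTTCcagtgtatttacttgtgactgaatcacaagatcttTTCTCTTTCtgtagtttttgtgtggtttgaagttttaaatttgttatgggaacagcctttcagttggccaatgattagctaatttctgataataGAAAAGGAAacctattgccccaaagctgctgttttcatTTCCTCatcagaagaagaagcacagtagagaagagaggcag
Cyba: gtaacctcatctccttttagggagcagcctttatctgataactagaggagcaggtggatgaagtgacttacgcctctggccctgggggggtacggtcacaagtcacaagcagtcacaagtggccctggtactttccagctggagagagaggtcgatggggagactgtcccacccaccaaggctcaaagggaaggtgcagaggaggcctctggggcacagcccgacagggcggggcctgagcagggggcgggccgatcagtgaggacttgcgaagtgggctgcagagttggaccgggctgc
Ncf1: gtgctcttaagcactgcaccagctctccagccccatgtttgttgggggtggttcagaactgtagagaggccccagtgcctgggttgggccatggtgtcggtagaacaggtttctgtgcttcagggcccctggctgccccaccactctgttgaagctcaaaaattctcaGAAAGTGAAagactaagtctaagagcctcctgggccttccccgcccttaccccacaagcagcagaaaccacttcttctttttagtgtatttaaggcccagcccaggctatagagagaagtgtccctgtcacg
The Cybb window held 3 matches to the IRF-type pattern, at bases 84 to 92, 128 to 136 and 222 to 230, and 1 to the PU.1-type pattern at bases 260 to 265. The Ncf1 window held 1 IRF-type match, at bases 169 to 177. None of the 4 patterns was found in the Cyba or the Nox4 window, and the Nos1 window held 1 PU.1-type match. No match overlapped another. Among all 32851 promoters of the table, 28.3% held the PU.1-type pattern, 8.56% the IRF-type, 8.62% the NF-kB-type and 13.6% TATAAA. The GC content of the Cybb window was 35.3%, that of Ncf1 54.0%, that of Cyba 60.7% and that of Nox4 68.3%, beside a median of 52.7% over the table. These matches describe letters only.

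Cybb (ENSMUSG00000015340, GRCm38 chrX:9435252-9487771, minus strand) encodes the electron-carrying chain of the phagocyte oxidase. Its level was 46.9, 39.3 and 43.9 CPM in ND replicates 1, 2 and 3 and 219, 164 and 343 CPM in HFD replicates 1, 2 and 3. Every HFD library was thus far above the ND range, and HFD replicate 3 was highest. The mean rose from 43.3 ± 3.82 CPM (SD, n = 3) to 242 ± 92.0 CPM (SD, n = 3), a log2 fold change of 2.48 (SE 0.28, 95% interval 1.83 to 3.13, adjusted p = 0.00610 by edgeR's quasi-likelihood test). Of all genes tested, 2.15% had a larger log2 fold change.

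Cyba (ENSMUSG00000006519, chr8:122424776-122432930, minus strand) encodes the small chain that stabilizes Cybb and also partners Nox4. The 3 ND libraries held 60.5, 52.3 and 65.6 CPM and the 3 HFD libraries 287, 179 and 517 CPM. The spread among the HFD libraries was wide, with replicate 3 at 2.88 times replicate 2, yet the lowest of them was well above the highest ND library. The mean went from 59.5 ± 6.71 to 328 ± 172 CPM, and the log2 fold change was 2.46 (SE 0.37, 95% interval 1.58 to 3.34, adjusted p = 0.0102 by edgeR's quasi-likelihood test). Set against each other per length in FPKM, the Cyba level was 7.68 ± 0.603 times that of Cybb on ND and 7.29 ± 1.14 times on HFD, ranges that overlapped.

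The cytosolic subunits moved with the membrane pair. Ncf1 (ENSMUSG00000015950, chr5:134220053-134229625, minus strand), the organizer that carries the cytosolic complex to the membrane, was at 22.8, 21.9 and 24.1 CPM on ND against 82.2, 62.2 and 175 CPM on HFD. Its log2 fold change was 2.21 (SE 0.37, 95% interval 1.34 to 3.09, adjusted p = 0.0127 by edgeR's quasi-likelihood test). The HFD libraries kept the order of Cybb and Cyba, with replicate 3 highest and replicate 2 lowest. Exons of Ncf1 overlap those of Gtf2ird2 on the other strand over 408 bases, and the library kit does not mark strand, but Gtf2ird2 had 889 counts over all 6 libraries.

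Ncf4 (ENSMUSG00000071715, chr15:78244801-78262580, plus strand), which binds membrane phosphoinositides and tunes the enzyme, was at 8.21, 7.89 and 8.95 CPM on ND against 32.3, 22.5 and 61.7 CPM on HFD. Its log2 fold change of 2.22 (SE 0.36, 95% interval 1.37 to 3.06, adjusted p = 0.0119 by edgeR's quasi-likelihood test) lay beside that of Ncf1. Of 12524 protein-coding genes searched (mean log2 CPM over 1), Ncf1 and Ncf4 were each other's nearest in pattern over the 6 libraries, with a root-mean-square difference of 0.05 in log2 CPM after each gene's mean was subtracted. The same measure placed Tbxas1 and Amz1 among the 3 genes nearest to Cybb, and Syk, Lair1 and Tbxas1 nearest to Cyba.

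Rac2 (ENSMUSG00000033220, chr15:78559167-78572783, minus strand), the leukocyte GTPase that switches the complex on, showed 26.8, 30.4 and 25.6 CPM on ND. On HFD it showed 79.3, 44.1 and 141 CPM, the widest spread of the 9 genes, a 3.20-fold range within the diet. Its log2 fold change was 1.68 (SE 0.38, 95% interval 0.77 to 2.58, adjusted p = 0.0290 by edgeR's quasi-likelihood test). The nearest patterns were those of Tuba1c, Atp6v1a and Mmp19. The widely expressed relative Rac1, which can serve the same role, was at 261 to 298 CPM on ND and 312 to 400.5 CPM on HFD and was not called (log2 fold change 0.29, adjusted p = 0.237 by edgeR's quasi-likelihood test), though its exons overlap Daglb over 2309 bases and reads of the 2 genes cannot be told apart there.

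Nox4 (ENSMUSG00000030562, chr7:87246096-87398710, plus strand) forms an oxidase that is active without the cytosolic subunits and is known from mesenchymal, endothelial and fat cells more than from phagocytes. It was at 2.97, 3.54 and 2.70 CPM on ND against 7.98, 6.02 and 7.14 CPM on HFD. Unlike the phagocyte subunits it was highest in HFD replicate 1, and its HFD libraries lay within 1.32-fold of each other. Its log2 fold change was 1.2 (SE 0.24, 95% interval 0.64 to 1.76, adjusted p = 0.0191 by edgeR's quasi-likelihood test). Per length its RNA was at 4.91% of the Cybb FPKM on ND and 2.15% on HFD, with no overlap between the diets. Both genes rose, Cybb by more, so the lower percentage on HFD is not a fall of Nox4. Of 9 fibroblast and progenitor markers, 0 were called by edgeR's test, with 0 higher and 1 lower at an unadjusted p under 0.05 and by DESeq2 and 0 by limma-voom, around a median log2 fold change of 0.05.

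**Figure D2:**
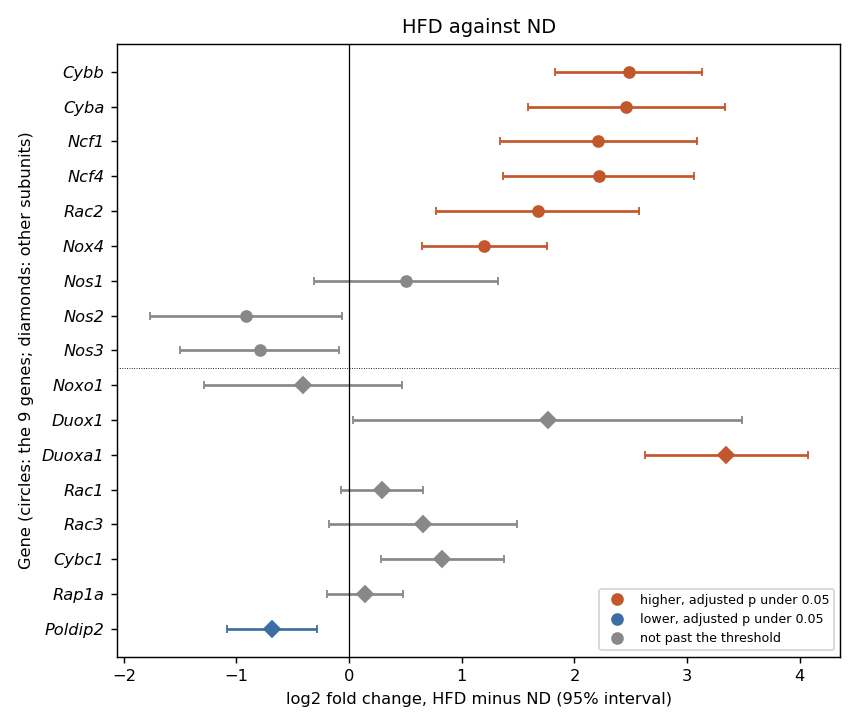
log2 fold change, HFD minus ND, with its 95% interval for the 9 genes (circles) and 8 genes of the list of other NADPH oxidase subunits (diamonds), with color giving the call by edgeR's quasi-likelihood test. The 6 oxidase genes lie between 1.2 and 2.48, and Duoxa1 at 3.35 lies farthest to the right.

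The other NADPH oxidase subunits formed a list of 14 genes, of which 9 could be tested, 2 were higher, 1 was lower and 6 did not pass, with a median log2 fold change of 0.66. Duoxa1, the maturation factor of the dual oxidase Duox1, drew 16, 30 and 19 counts in the ND libraries against 232, 190 and 210 in the HFD libraries. With 1.18 ± 0.483 CPM on ND and 12.1 ± 0.617 CPM on HFD it had the largest log2 fold change of this list, 3.35 (SE 0.31, adjusted p = 0.00344 by edgeR's quasi-likelihood test), and a narrow spread on HFD. Its exons overlap Duoxa2 over 682 bases on the other strand, and Duoxa2 had 12 counts over all libraries.

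Duox1 itself drew 2, 22 and 8 counts in ND replicates 1, 2 and 3 against 25, 45 and 34 in the HFD replicates. All HFD libraries were above the ND libraries, but the ND values ran widely and Duox1 did not pass (log2 fold change 1.76, adjusted p = 0.141 by edgeR's quasi-likelihood test). Poldip2, a partner of Nox4, fell by 0.68 on the log2 scale (adjusted p = 0.0374). Cybc1, a chaperone of the Cybb-Cyba dimer, came to a log2 fold change of 0.83 (adjusted p = 0.0516), Rac3 of 0.66, Rap1a of 0.14 and Noxo1 of -0.41, and none of these passed. Exons of Noxo1 overlap those of Tbl3 over 2122 bases. Nox1, Noxa1, Duox2 and Duoxa2 had too few counts for the test, and Nox3 had 0 counts in every library, which allows up to 0.150 to 0.181 CPM.

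Most macrophage markers moved with the oxidase genes. Of 15 such markers, all tested, 10 were higher on HFD and 0 lower, by edgeR and also by limma-voom, with 11 and 0 at an unadjusted p under 0.05 and by DESeq2. Their log2 fold changes ran from -0.05 to 3.72 around a median of 1.32. Of the 15, 13 had a positive log2 fold change, and 5 were not called by edgeR. Their summed level was 2054 to 2156 CPM on ND and 5554, 4318 and 9309 CPM in HFD replicates 1, 2 and 3, the same order of libraries as for Cybb. Neutrophil markers were low, at 5.40 to 8.42 CPM in sum on ND and 6.67 to 10.9 CPM on HFD, and Ly6g, a defining one, had 1 count over all libraries. Of the 11 neutrophil markers 4 were tested, of which 1 was higher (S100a8, log2 fold change 1.45, adjusted p = 0.0219 by edgeR's quasi-likelihood test) and 1 lower (Camp, with 17, 17 and 14 counts in the ND libraries against 0, 2 and 0 in the HFD libraries, adjusted p = 0.0186). Of 8 T and B lymphocyte markers 0 were called by edgeR, DESeq2 or limma-voom, and 0 had an unadjusted p under 0.05. In bulk tissue, more cells of a type and more RNA per cell cannot be told apart, and the part of these markers in the oxidase result was not tested.

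The oxidase genes were therefore also set against the macrophage markers, as CPM per 1000 CPM of their sum. On this scale Cybb stood at 21.7, 18.96 and 21.4 on ND and at 39.4, 37.9 and 36.9 on HFD, so that the HFD libraries, which spanned a 2.10-fold range in CPM, came close to each other and remained above ND. The ratio of the HFD mean to the ND mean was 1.84 for Cybb, 1.74 for Cyba, 1.47 for Ncf4 and 1.46 for Ncf1, each without overlap between the diets. Rac2 was at 13.2 ± 1.28 on ND and 13.2 ± 2.64 on HFD, and Nox4 at 1.47 ± 0.212 and 1.2 ± 0.375, and both overlapped. These ratios depend on which markers are summed, since the markers themselves differed in log2 fold change, and no test was made on them. The largest part of the sum was Lyz2, at a mean of 903 CPM on ND and 3105 CPM on HFD (log2 fold change 1.78). Adgre1 (2.91) and Cd68 (3.72) rose more than Cybb (2.48), while the median marker (1.32) rose less. Higher ratios to the sum are therefore not higher ratios to every macrophage marker.

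**Figure D3:**
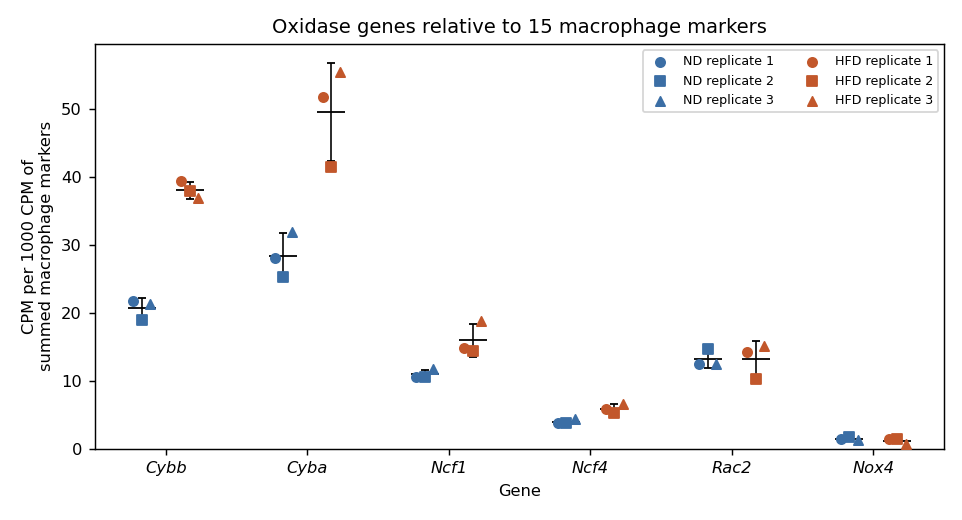
Level of 6 oxidase genes in each library as CPM per 1000 CPM of 15 summed macrophage markers, with bars for the mean and error bars for 1 SD (n = 3 libraries per diet). Relative to this sum, Cybb, Cyba, Ncf1 and Ncf4 lie higher on HFD without overlap, whereas Rac2 and Nox4 overlap between the diets. Adgre1 and Cd68, markers within the sum, rose more than any of these 6 genes.

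Genes that activate the oxidase, a list of 19 kinases, adaptors, receptors and related genes, were all tested. Of all genes tested, edgeR called 9.85% higher and 6.04% lower. Of these 13 were higher by edgeR's quasi-likelihood test and 0 lower, with 15 higher and 1 lower at an unadjusted p under 0.05, 14 and 1 by DESeq2 and 12 and 0 by limma-voom, and the median log2 fold change was 1.29. Among the 3 with the largest increase were Prkcb, the protein kinase C isoform that phosphorylates p47phox, at 2.56 (SE 0.53, adjusted p = 0.0220), and Syk, the kinase behind Fc and integrin receptors, at 2.55 (SE 0.37, adjusted p = 0.00958). Syk was at 36.5 to 42.4 CPM on ND against 202, 121 and 355 CPM on HFD, the pattern nearest to that of Cyba. In both genes HFD replicate 3 was highest and HFD replicate 2 lowest.

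Among the synthases, Nos3 (ENSMUSG00000028978, chr5:24364810-24384474, plus strand) had the highest level per length. It was at 54.4, 59.7 and 52.6 CPM on ND against 35.8, 43.0 and 17.4 CPM on HFD. The groups did not overlap, but HFD replicate 3 lay far below the other two and the difference did not pass, with a log2 fold change of -0.79 (SE 0.30, 95% interval -1.50 to -0.09, adjusted p = 0.113 by edgeR's quasi-likelihood test). Its exons overlap those of Atg9b over 294 bases and of Gm15587 over 1040 bases on the other strand, and these had 286 and 52 counts over all libraries. The 3 genes nearest to it in pattern were Kdr, the endothelial VEGF receptor, Sugct and Mnd1. Their root-mean-square differences were 0.072, 0.075 and 0.094 in log2 CPM. Kdr, at a log2 fold change of -0.83, was the lowest of the 10 endothelial markers set out below, whose median was -0.36.

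Nos2 (ENSMUSG00000020826, chr11:78920787-78960254, plus strand) was at 19.5, 14.8 and 12.1 CPM on ND against 8.74, 11.6 and 4.26 CPM on HFD. The HFD libraries lay below the ND libraries by a narrow margin and had the order of Nos3, the reverse of the order of Cybb. The log2 fold change was -0.92 (SE 0.36, 95% interval -1.77 to -0.06, adjusted p = 0.126 by edgeR's quasi-likelihood test) and did not pass. The nearest patterns were those of Aatk, Apol10b and Zbtb16.

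The study lists a primer pair for Nos2, printed here to show where on the transcript its PCR assay reads.
Nos2 primer listed as forward: gcttctggtcgatgtcatgag
Nos2 primer listed as reverse: tccaccaggagatgttgaac
In GENCODE M21 the pair matched transcripts of Nos2 and of no other gene. On the Nos2 transcript of 4192 bases the primer listed as reverse has the sense of the transcript and lies in exon 12 (chr11:78944805-78944824), the one listed as forward is antisense and lies in exon 17 (chr11:78948266-78948286), and the product spans 507 bases.

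Nos1 (ENSMUSG00000029361, chr5:117781032-117958840, plus strand) had the lowest level per length of the 9 genes, and was at 2.16, 2.44 and 1.85 CPM on ND against 2.29, 4.40 and 2.48 CPM on HFD. The diets overlapped, with HFD replicate 2 above the rest, and the log2 fold change was 0.51 (SE 0.35, 95% interval -0.31 to 1.32, adjusted p = 0.346 by edgeR's quasi-likelihood test). A change of either sign therefore lies within its interval.

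**Figure D4:**
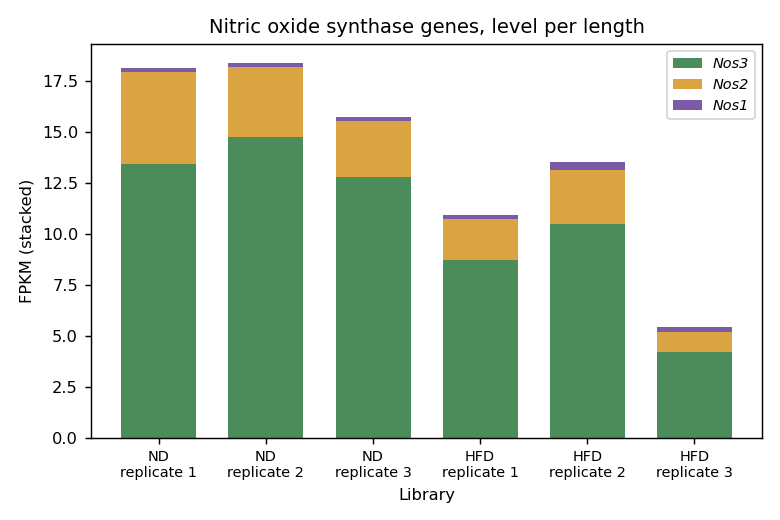
Level per length (FPKM) of the 3 nitric oxide synthase genes, stacked for each library. The summed level is 15.7 to 18.4 in the ND libraries and 5.41 to 13.5 in the HFD libraries, and Nos3 takes most of every bar.

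Per length, the 3 synthases summed to 17.4 ± 1.48 FPKM on ND and 9.94 ± 4.13 FPKM on HFD, with no overlap between the diets. The Nos3 share of that sum was 78.5% ± 3.93 on ND and 78.5% ± 1.22 on HFD, and that of Nos2 20.3% ± 3.95 and 18.6% ± 0.855, so that their mix overlapped between the diets. Nos1 took 1.12% ± 0.0807 on ND and 2.98% ± 1.11 on HFD, without overlap. On ND the order of the 9 genes by FPKM was Cyba (58.0 ± 6.13), Nos3 (13.6 ± 0.998), Rac2 (9.03 ± 0.876), Cybb (7.57 ± 0.662), Ncf1 (6.35 ± 0.257), Ncf4 (4.19 ± 0.236), Nos2 (3.56 ± 0.882), Nox4 (0.368 ± 0.054) and Nos1 (0.196 ± 0.028). Of the neighbours in that order, Ncf4 and Nos2 overlapped in range. On HFD Nos3 (7.80 ± 3.22 FPKM) was below all 5 phagocyte subunits, whose means were 317 for Cyba, 41.8 for Cybb, 29.1 for Ncf1, 28.5 for Rac2 and 19.3 for Ncf4. The ranges of those after Cyba overlapped each other.

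Cybb was also set against Nos3 and Nos2 as a ratio of CPM, which is not a level per length and is read only across libraries. These are the member with the largest log2 fold change and the 2 with negative ones, so the ratios do not describe the families. Neither Nos3 nor Nos2 passed the test, and the log2 fold change of Nos1 was 0.51. Cybb CPM was 0.861, 0.658 and 0.835 times that of Nos3 in the ND libraries and 6.12, 3.80 and 19.7 times in the HFD libraries. Against Nos2 it was 2.40, 2.65 and 3.63 times on ND and 25.0, 14.1 and 80.6 times on HFD. HFD replicate 3, with the highest macrophage sum and the lowest adipocyte sum, had the widest ratios.

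Markers of other cell types were set beside the synthases. None of 10 endothelial markers passed the test in either direction, with 2 lower at an unadjusted p under 0.05, 1 lower by DESeq2 and 0 by limma-voom, a median log2 fold change of -0.36, and sums of 1338 to 1696 CPM on ND and 754 to 1407 CPM on HFD. Per 1000 CPM of these markers Nos3 was at 37.0 ± 4.30 on ND and 26.5 ± 4.13 on HFD and Nos2 at 10.1 ± 1.25 and 6.74 ± 1.43, both without overlap. Per 1000 CPM of the adipocyte markers Nos3 was at 1.07 ± 0.0916 and 1.03 ± 0.193 and Nos2 at 0.298 ± 0.0694 and 0.261 ± 0.0505, and both overlapped. Per 1000 CPM of the macrophage markers, whose sum was higher on HFD, Nos3 was at 26.6 ± 1.97 on ND and 6.09 ± 4.06 on HFD. On the same scale Nos2 was at 7.36 ± 1.59 and 1.57 ± 1.11, and neither overlapped between the diets. The part of these cell types in the synthase values was not tested.

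Genes of arginine and cofactor supply numbered 15, of which 13 were tested, 1 was higher and 1 lower, with a median log2 fold change of 0.47. These counts lay near the shares over all genes tested, 9.85% higher and 6.04% lower. At an unadjusted p under 0.05, 3 were higher and 3 lower, by DESeq2 2 and 2 and by limma-voom 1 and 1. Both genes called by edgeR's test make tetrahydrobiopterin. Gch1, its rate-limiting first enzyme, rose by 0.90 on the log2 scale (SE 0.21, adjusted p = 0.0309 by edgeR's quasi-likelihood test), and Pts, the second enzyme, fell by 0.84 (SE 0.18, adjusted p = 0.0244). The other 11 genes tested, some of them also of this cofactor, were not called. Gch1 was at 7.18 to 8.05 CPM on ND and 11.02 to 17.9 CPM on HFD. Arg1, which draws arginine away from the synthases and was singled out after its values were seen, drew 25, 18 and 19 counts in the ND libraries against 91, 23 and 143 in the HFD libraries and did not pass (log2 fold change 2.12, SE 0.62, adjusted p = 0.0574 by the same test).

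Of 11 partners of the synthases, all tested, 3 were higher and 0 lower by edgeR's quasi-likelihood test, with a median log2 fold change of 0.51. The shares over all genes tested were 9.85% higher and 6.04% lower. At an unadjusted p under 0.05, 7 were higher, by DESeq2 4 and by limma-voom 2, and 0 were lower by any of these. Nostrin, which traffics Nos3 away from the membrane, rose by 1.65 (SE 0.42, adjusted p = 0.0390 by edgeR's quasi-likelihood test), Nos1ap, an adaptor of Nos1, by 1.32 (SE 0.27, adjusted p = 0.0220), and Calm2, a calmodulin gene, by 0.71 (SE 0.19, adjusted p = 0.0461). Exons of Nos1ap overlap those of Gm7694 on the same strand over 171 bases, and Gm7694 had 1301 counts over all libraries. Of 9 targets of nitric oxide, the guanylate cyclase subunits, cyclic-GMP kinases and related genes, 0 were higher and 1 was lower, Prkg2, which fell by 2.07 (SE 0.48, adjusted p = 0.0289 by edgeR's quasi-likelihood test) from 0.638 to 1.03 CPM on ND to 0.120 to 0.273 CPM on HFD. At an unadjusted p under 0.05, 5 of the 9 targets were lower, by DESeq2 2 and by limma-voom 2, and 0 were higher by any of these. In 5 of the 9 every HFD library was below every ND library, an order that held for 19.1% of all genes tested. The median log2 fold change of these targets was -0.36, and in HFD replicates 2 and 3 Prkg2 drew only 2 and 3 counts.

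The calls were recomputed with each library left out in turn. Cybb was called higher in all 6 fits (log2 fold change 2.13 to 2.70, adjusted p 0.000603 to 0.0380 by edgeR's quasi-likelihood test). Cyba (1.96 to 2.76, adjusted p 0.00126 to 0.0537), Ncf1 (1.64 to 2.49, adjusted p 0.00114 to 0.0605) and Ncf4 (1.70 to 2.50, adjusted p 0.00194 to 0.0582) missed the threshold without ND replicate 1 and without ND replicate 2. Rac2 (1.15 to 2.0, adjusted p 0.00266 to 0.102) and Nox4 (1.07 to 1.31, adjusted p 0.0148 to 0.0990) missed it without HFD replicate 1 or any 1 of the ND replicates. In all 6 fits the unadjusted p of these 6 genes stayed under 0.05, and without HFD replicate 3, the library with the highest phagocyte subunits, all 6 were still called. Nos2 was called lower without HFD replicate 2 (-1.24, adjusted p = 0.0456, over the fits 0.0456 to 0.324), and Nos3 without HFD replicate 2 (-1.06, adjusted p = 0.0403) or HFD replicate 3 (-0.51, adjusted p = 0.0441, over the fits 0.0403 to 0.237). Nos1 was called in none of them (adjusted p 0.348 to 0.775).

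**Figure D5:**
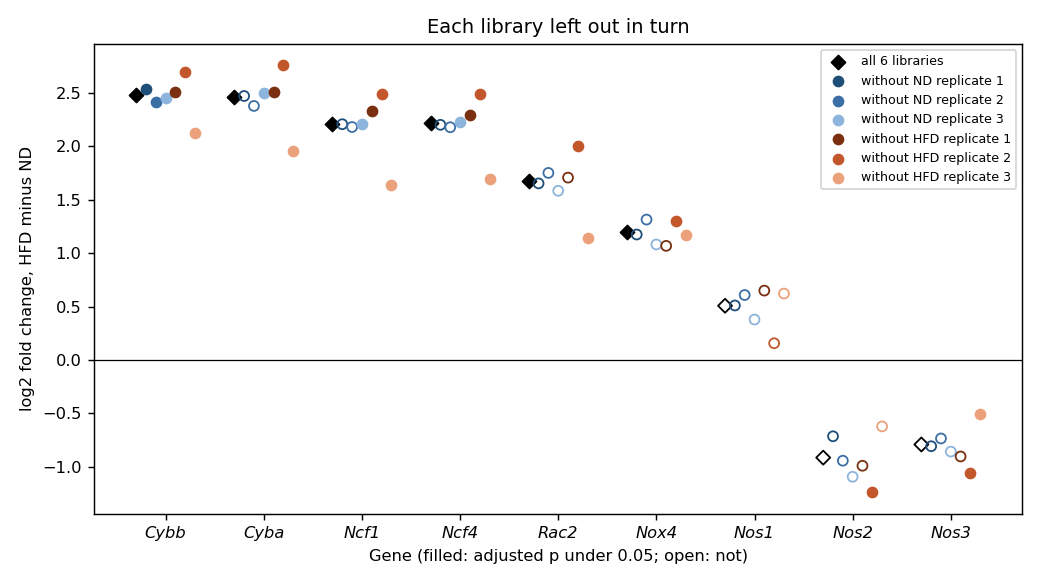
log2 fold change, HFD minus ND, of the 9 genes with all 6 libraries (diamonds) and with each library left out (circles), filled where the adjusted p of edgeR's quasi-likelihood test was under 0.05. No value crosses 0, and the values without HFD replicate 3 lie lowest for the 5 phagocyte subunits, from 1.15 for Rac2 to 2.13 for Cybb.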

How the data were processed

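RNA was sequenced from epididymal fat with an Illumina kit that does not mark strand. Per the paper's methods, paired-end reads were mapped to GRCm38 with TopHat and Cufflinks, whereas the submitters' processing notes name CASAVA 1.8, fastp, HISAT2 2.0.5, featureCounts 1.5.0-p3 and DESeq2 1.20.0 with human builds, although the identifiers are those of mouse. The annotation release is not given in the sources used here. The authors deposited raw counts per gene and matching FPKM values. Symbols and coordinates come from GENCODE M21 (54495 of 54532 identifiers found), and promoters from RefSeq.

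Groups and replicate numbers follow the labels. Counts were filtered with filterByExpr, scaled by TMM and tested with diet as the only factor by edgeR 4.0.16 (glmQLFit with robust=TRUE, R 4.3.3), with an adjusted p of 0.05 as the threshold. FPKM values served to compare levels between genes. The standard error was derived from the F statistic. No 2 libraries were as alike as sampling noise would make them, since the chi-square per gene was 19.0 to 167 between libraries of a diet. The scripts were tested on simulated data. Results were recomputed with DESeq2 1.42.0, with limma-voom (limma 3.58.1), with other scalings and filters, robust=FALSE or a replicate block, with limma on log2(FPKM + 1) or log2(FPKM + 0.1), and without each library in turn.

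All 9 genes were named, as were any of the other subunits, up to 3 called genes per direction and list with the largest change, and the nearest patterns. Some results are not reported here. Genes and lists were chosen with earlier results of these data known.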

Additional observations from a re-analysis of the deposited data

How the results depend on the processing

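With all 6 libraries, edgeR's quasi-likelihood test called 2504 genes, 6 of the 9 genes higher and 0 lower, and 22 genes of the pathway lists. Leaving out 1 library at a time gave 474 genes (without HFD replicate 1) to 3940 (without HFD replicate 2), 1 (without ND replicate 1 or ND replicate 2) to 6 of the 9 genes higher, 0 to 2 lower, and 3 (without ND replicate 2) to 31 genes of the lists. No log2 fold change of the 9 genes changed sign under the alternatives, which was not checked for other genes. Limma on log2(FPKM + 1) without a filter called 649 genes, of which 2 were among the 9 (Cybb and Cyba, both higher) and 4 were in the lists, and the cause was not tested. DESeq2 called 3666 genes and 31 of the lists, with the same 6 of the 9 genes higher. The labels name no pairing of libraries by replicate number. Over all genes tested, the correlations of deviations between same-numbered libraries were -0.0858, -0.0556 and -0.00532, and no library correlated best with its own number. Such values cannot exclude a pairing that affected only some genes. With the replicate block 1886 genes, 4 of the 9 genes and 18 of the lists were called, and Rac2 (adjusted p = 0.0641, 0.000153 to 0.115 over all alternatives but the leave-one-out fits) and Nox4 (0.0538, 0.000628 to 0.0868) were those lost. Rac2 was also lost with no filter and Rac2 and Nox4 with log2(FPKM + 1), Nox4 also with log2(FPKM + 0.1). Nos1 was too low for the FPKM filter and has no value there. Outside the leave-one-out fits Nos2 and Nos3 were never called. With 3 libraries per diet, intervals of the 3 synthases still reach close to or past 0, and a gene below 3 counts could not be measured at this depth.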

Other observations

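The superoxide dismutases, which turn the superoxide of the oxidases into hydrogen peroxide, were 3 genes that edgeR's quasi-likelihood test called in neither direction, with 1 higher and 1 lower at an unadjusted p under 0.05 and by DESeq2, and 0 by limma-voom. Sod1, the cytosolic form, came to a log2 fold change of -0.58 (adjusted p = 0.0584), Sod2, the mitochondrial form, of -0.11, and Sod3, the extracellular form, of 0.92 (adjusted p = 0.0694). The HFD libraries of Sod1 lay below and those of Sod3 above the ND libraries.

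The ratio of Arg1 to Nos2, both of which use arginine, was 0.0693, 0.0706 and 0.0785 in CPM in the ND libraries and 0.569, 0.120 and 1.93 in HFD replicates 1, 2 and 3. The diets did not overlap in this ratio, which was examined after the values of Arg1 were seen, and no test was made on it.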
